A study of Mus musculus with 12 samples.

Results

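The integrated stress response is described here through 10 mouse genes: the kinase genes Eif2ak3 and Eif2ak4, the transcription factor gene Atf4, its targets Atf3, Ddit3, Trib3, Asns and Sesn2, and the phosphatase subunit genes Ppp1r15a and Ppp1r15b. They were taken by symbol from the 43629 genes of the deposited count table, and all 10 had a row and enough counts to be tested. The data were 12 samples of mouse cortical neuronal culture, 6 labelled IFNG and 6 labelled Control. The IFNG cultures carried a lentivirus expressing Ifng, which encodes interferon-gamma, from day 7 in vitro, and RNA was taken 10 days later. Every sample bears that same protocol text, so what virus, if any, the Control cultures received is not given. The promoter of the construct, the strain and the number of animals behind the cultures are not given either.

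Cells use this pathway to cut protein synthesis under stress. A set of kinases, each with its own trigger, phosphorylates the initiation factor eIF2. General translation then falls while the Atf4 messenger is translated more, so the amount of Atf4 RNA does not by itself report on the amount of ATF4 protein. ATF4 switches on genes for amino acid supply and, with prolonged stress, genes tied to growth arrest and cell death, and the pathway is closed again by a phosphatase that restores eIF2. In neurons it is known from work on synaptic plasticity, myelin disease and neurodegeneration.

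ATF4 binds with CEBP partners to an element whose core is searched here as TGATGNAA. RefSeq promoter windows (build GRCm38.p6, 250 bases before to 50 after the start) were matched for 9 of the 10 genes, all but Ppp1r15b, in 10 windows. The core stood on either strand in 3 of the 9 genes, Atf3, Trib3 and Asns, against 3.97% of all 32851 windows. A cyclic AMP response element, TGACGTCA, stood in the window of Ppp1r15a and in 1.79% of all windows. The gamma-activated site TTCNNNGAA stood in the window of Eif2ak3 and in 8.3% of all windows. The ER stress response element stood in no member and in 0.119% of all windows. These are matches of letters, not shown to be bound. The 4 stretches around the start are shown because Trib3 and Ppp1r15a carry the changes described further on, while Asns and Atf3 share the ATF4 core. Capitals mark the match, which is the cyclic AMP element in Ppp1r15a and the ATF4 core or its reverse complement in the others.
Trib3 (chr2:152344036-152344185, minus strand): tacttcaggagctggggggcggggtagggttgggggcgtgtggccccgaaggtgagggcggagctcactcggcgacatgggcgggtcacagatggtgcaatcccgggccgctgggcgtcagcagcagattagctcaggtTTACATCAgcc
Asns (chr6:7693185-7693334, minus strand): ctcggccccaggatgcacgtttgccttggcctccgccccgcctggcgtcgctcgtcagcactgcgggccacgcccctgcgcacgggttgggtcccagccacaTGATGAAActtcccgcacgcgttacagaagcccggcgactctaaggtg
Atf3 (chr1:191183309-191183458, minus strand): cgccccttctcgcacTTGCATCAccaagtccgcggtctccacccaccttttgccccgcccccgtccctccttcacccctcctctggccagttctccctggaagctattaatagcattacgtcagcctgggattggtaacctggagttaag
Ppp1r15a (chr7:45526244-45526393, minus strand): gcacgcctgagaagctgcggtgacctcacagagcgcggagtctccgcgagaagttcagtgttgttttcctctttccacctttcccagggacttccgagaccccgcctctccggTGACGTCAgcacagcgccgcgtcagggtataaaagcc

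IFNG libraries held 13875435 to 34239380 counts and Control libraries 14408343 to 20299507. Ifng itself was read at 4.98 to 17.9 CPM, counts per library on a scale common to all libraries, in IFNG libraries and at most 3 counts in any Control library, so the labels matched. Library totals behind CPM were scaled for composition by TMM. Log2 fold changes are IFNG over Control and are followed by ± the standard error (SE). Adjusted p-values are Benjamini-Hochberg values over 15241 genes from the quasi-likelihood test of edgeR. All 16 tested astrocyte markers were higher in IFNG, against 14.3% of all genes. Their summed level was 5733 to 8979 CPM in IFNG libraries against 3462 to 3893 CPM in the Control libraries. Neuronal markers summed to 4957 to 6222 CPM in IFNG libraries, so the labelled cell type was present, and to 6504 to 7135 CPM in the Control ones. Of these 15 markers 5 were lower, against 9.79% of all genes. In bulk RNA, fewer cells of a type and less RNA per cell cannot be told apart, and the part of this shift in any result here was not tested.

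Before the comparison, the Control libraries have to be described, because they were not alike for these genes. Control 4, 5 and 6 lay above Control 1, 2 and 3 without overlap for 7 of the 10 genes: Atf4, Atf3, Ddit3, Trib3, Asns, Sesn2 and Ppp1r15a. Of all genes tested, 9.15% showed that order. The kinase genes Eif2ak3 and Eif2ak4 and the constitutive phosphatase subunit gene Ppp1r15b did not. In IFNG libraries the same order of numbers held for 3 of the 10, Ddit3, Asns and Ppp1r15a, against 7.33% of all genes. The order was noticed in these values, the labels name no batch, and its source was not tested. The values of the genes with this order among the 10 are therefore given with and without these libraries. The split was drawn from these same values. Leaving out Control 4, 5 and 6 therefore raises the log2 fold change of a gene with that order by construction, and leaving out Control 1, 2 and 3 lowers it. Adjusted p-values and calls from those fits describe the values and are not tests of a change.

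Across all 12 libraries, 2 of the 10 genes were lower in IFNG than in Control, Trib3 and Ppp1r15a, and none was higher. Over all genes tested, 9.79% were lower and 14.3% higher, 24.1% together. The median log2 fold change was -0.14 over the 10 genes and -0.02 over all genes. At an unadjusted p under 0.05, 4 of the 10 genes were lower and 0 higher, against 2446 lower and 2894 higher of all 15241. With DESeq2 or limma-voom, 0 of the 10 were higher. For none of the 10 did the libraries of the groups separate, which 12.8% of all genes did.

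**Figure D1:**
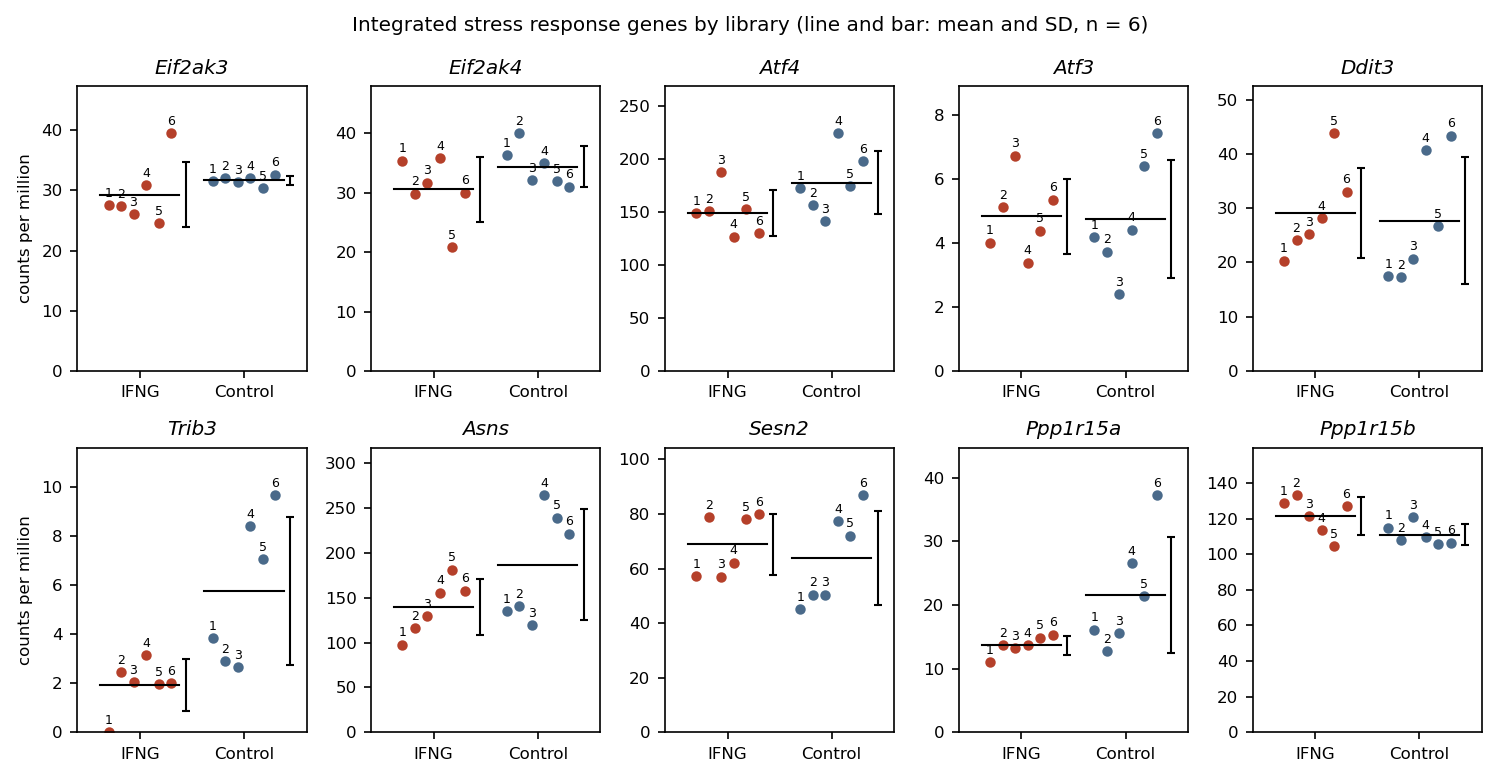
Level of each of the 10 genes in each library, in CPM on an axis from 0, with IFNG libraries on the left and Control libraries on the right. Numbers are replicate numbers, the line is the mean and the bar the SD (n = 6 each). Trib3 was at 0 in IFNG 1, and Control 4, 5 and 6 lie above the other Control libraries for Trib3, Asns, Sesn2 and Ppp1r15a.

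The kinases come first in the pathway. Eif2ak3 (ENSMUSG00000031668, GRCm38 chr6:70844515-70905245, plus strand) encodes PERK, which senses unfolded protein in the endoplasmic reticulum. It was read at 24.5 CPM at the lowest, 27.5 at the median and 39.5 at the highest in IFNG libraries, against 30.4, 31.8 and 32.6 CPM in Control libraries. The IFNG libraries enclosed the whole Control range, which was narrow. Its log2 fold change was -0.11 ± 0.11 (SE), with a 95% interval of -0.35 to 0.12 (adjusted p = 0.523). Exons of Eif2ak3 share 485 bases with Gm43292 on the other strand, a gene that was not counted. Eif2ak4 (ENSMUSG00000005102, chr2:118388618-118475234, plus strand) encodes GCN2, which senses uncharged transfer RNA and so a lack of amino acids. It was read at 20.8, 30.9 and 35.9 CPM (lowest, median and highest) in IFNG libraries, against 31.1, 33.6 and 39.98 CPM in Control libraries. The groups overlapped, IFNG 5 being the lowest library, and the log2 fold change was -0.17 ± 0.12, with a 95% interval of -0.43 to 0.09 (adjusted p = 0.344).

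Among the kinases outside the 10 genes, Eif2ak2 stood far apart. It encodes PKR, a kinase triggered by double-stranded RNA and a classical interferon-induced gene. It averaged 137 ± 34.2 CPM over IFNG libraries, with 175 CPM at the highest, against 8.44 ± 1.34 CPM over the Control ones, which ran from 6.39 to 10.1 CPM (SD, n = 6 each). Every IFNG library was above every Control library, and Eif2ak2 rose 16.2-fold (log2 fold change 4.02 ± 0.17, adjusted p = 1.29e-13). Eif2ak1, the heme-regulated kinase gene, averaged 65.5 ± 3.57 CPM over IFNG libraries and 66.5 ± 6.37 CPM over Control libraries (SD, n = 6 each; adjusted p = 0.893). Its 95% interval was -0.20 to 0.16 on the log2 scale, and the sign of its small difference turned under several alternatives.

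Regulators of the kinases were listed with them, and 3 of 9 tested genes of that list rose and 0 fell, the median log2 fold change being 0.03; of all genes 14.3% were higher. Besides Eif2ak2 these were Dnajc3, which encodes an endoplasmic reticulum co-chaperone known as an inhibitor of PKR and PERK, at 0.67 ± 0.09 (adjusted p = 7.14e-06), and Dele1, which relays mitochondrial stress to the heme-regulated kinase, at 0.39 ± 0.10 (adjusted p = 0.00818). The call on Dele1 was lost without Control 4, 5 and 6 (adjusted p = 0.0576) and without Control 1, 2 and 3 (0.0694). Gcn1l1, whose product activates GCN2, stood at 0.03 ± 0.12 (adjusted p = 0.901). None of the 8 subunit genes of eIF2 and of its exchange factor eIF2B passed in edgeR; at an unadjusted p under 0.05 1 was higher and 0 lower, and DESeq2 and limma-voom called 0. Their median log2 fold change was -0.04, and Eif2s2, the one with the highest CPM, stood at -0.22 ± 0.13 (adjusted p = 0.228).

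Atf4 (ENSMUSG00000042406, chr15:80255184-80257541, plus strand) encodes the transcription factor through which the kinases act on genes. Its levels were 149, 151, 187, 127, 152 and 130 CPM in IFNG libraries 1 to 6, against 172, 156, 141, 224, 174 and 198 CPM in Control libraries 1 to 6. The groups overlapped, with Control 4 the highest library and IFNG 4 the lowest. The log2 fold change was -0.25 ± 0.12, with a 95% interval of -0.49 to -0.01, and did not pass after adjustment (adjusted p = 0.126). Without Control 4, 5 and 6 it was -0.05 (adjusted p = 0.835), without Control 1, 2 and 3 it was -0.41 (0.0487), and without IFNG 3 it was -0.33 (0.037).

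Trib3 (ENSMUSG00000032715, chr2:152337422-152344032, minus strand) encodes a pseudokinase that ATF4 and CHOP induce and that in turn restrains ATF4. IFNG libraries 1 to 6 held 0, 2.45, 2.06, 3.16, 1.98 and 2.01 CPM, against 3.86, 2.90, 2.66, 8.42, 7.06 and 9.69 CPM in Control libraries 1 to 6. Control 4, 5 and 6 were the highest libraries, and Control 2 and 3 lay below IFNG 4. IFNG 1 had 0 Trib3 counts, which allows up to 0.204 CPM (a floor of 3 counts, for counting error only), while the other IFNG libraries had 38 to 82 counts. Trib3 fell to 1.94 ± 1.05 CPM in IFNG libraries, against 5.77 ± 3.02 CPM in the Control ones (SD, n = 6 each). The log2 fold change was -1.56 ± 0.47 (adjusted p = 0.0196), and -1.32 without IFNG 1 (adjusted p = 0.00746). The call was lost without Control 6 (-1.34, adjusted p = 0.0652), with DESeq2 (-1.57, 0.0521) and without Control 4, 5 and 6 (-0.67, 0.492), while without Control 1, 2 and 3 the value was -2.10 (0.00771).

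Asns (ENSMUSG00000029752, chr6:7675169-7693254, minus strand) encodes asparagine synthetase, a textbook target of ATF4 in amino acid shortage and, with Atf4, the most abundant of the 10 genes per length of exon. It was read at 97.7, 116, 129, 156, 181 and 158 CPM in IFNG libraries 1 to 6, against 135, 141, 119, 264, 239 and 221 CPM in Control libraries 1 to 6. All of Control 4, 5 and 6 were above every IFNG library, and Control 1, 2 and 3 lay within the IFNG range. The log2 fold change was -0.42 ± 0.19, with a 95% interval of -0.81 to -0.03, and did not pass after adjustment (adjusted p = 0.113). It passed without Control 3 (-0.52, adjusted p = 0.0436). The value was -0.79 without Control 1, 2 and 3 (0.00208), and without Control 4, 5 and 6 the sign turned (0.10, 0.75).

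Ddit3 (ENSMUSG00000025408, chr10:127290774-127296288, plus strand) encodes CHOP, a factor linked to cell death under prolonged stress. Levels were 20.3, 24.1, 25.2, 28.1, 43.7 and 33.0 CPM in IFNG libraries 1 to 6, against 17.4, 17.3, 20.7, 40.7, 26.7 and 43.4 CPM in Control libraries 1 to 6. The groups spanned nearly the same range. The log2 fold change was 0.07 ± 0.23, with a 95% interval of -0.40 to 0.55 (adjusted p = 0.864). The value was 0.67 without Control 4, 5 and 6 (adjusted p = 0.033) and -0.34 without Control 1, 2 and 3 (0.324). Exons of Ddit3 overlap those of 3 annotated genes, by up to 105 bases. Gm4189 and Mars, the latter at 101 to 171 CPM, lie on the other strand, and a further Ddit3 entry that was not counted lies on the same strand. Which of them shares the 105 bases was not resolved, and the strand setting of the counts is not given in the sources used here.

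Sesn2 (ENSMUSG00000028893, chr4:132492032-132510501, minus strand) encodes sestrin 2, which restrains the growth kinase mTORC1 when leucine is short. IFNG libraries 1 to 6 held 57.3, 78.8, 57.0, 62.2, 78.1 and 79.8 CPM, against 45.2, 50.5, 50.5, 77.3, 72.0 and 87.0 CPM in Control libraries 1 to 6. The lowest IFNG library was above Control 1, 2 and 3, and the highest library of all was Control 6. The log2 fold change was 0.11 ± 0.15, with a 95% interval of -0.21 to 0.43 (adjusted p = 0.648). The value was 0.51 without Control 4, 5 and 6 (adjusted p = 0.0152) and -0.19 without Control 1, 2 and 3 (0.423).

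Atf3 (ENSMUSG00000026628, chr1:191170296-191218039, minus strand), an early stress factor gene, had few counts, 35 to 171 per library. It was read at 3.38, 4.74 and 6.72 CPM (lowest, median and highest) in IFNG libraries and 2.39, 4.29 and 7.41 CPM in Control libraries. The Control range enclosed the IFNG range, and the log2 fold change was 0.02 ± 0.25, with a 95% interval of -0.51 to 0.55 (adjusted p = 0.964). Without Control 4, 5 and 6 the value was 0.51 (adjusted p = 0.252). Its sign turned without Control 1, 2 and 3 (-0.33, adjusted p = 0.476) and on library totals with no composition factor (-0.02).

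The phosphatase that ends the response has an inducible and a constitutive regulatory subunit. Ppp1r15a (ENSMUSG00000040435, chr7:45522916-45526268, minus strand) encodes the inducible one, GADD34, itself a product of the pathway. IFNG libraries 1 to 6 held 11.0, 13.7, 13.2, 13.7, 14.9 and 15.3 CPM, against 16.2, 12.8, 15.6, 26.6, 21.4 and 37.3 CPM in Control libraries 1 to 6. The IFNG libraries were close together, and among Control libraries only Control 2 was below the highest IFNG library. Ppp1r15a fell to 13.7 ± 1.53 CPM in IFNG libraries, against 21.6 ± 9.11 CPM in the Control ones (SD, n = 6 each), which is -0.66 ± 0.20 on the log2 scale (adjusted p = 0.0224). The call was lost without Control 4 (-0.59, adjusted p = 0.0574), without Control 6 (-0.42, 0.0858) and without Control 4, 5 and 6 (-0.11, 0.705), while without Control 1, 2 and 3 the value was -1.06 (0.000378). It was also lost with limma-voom (-0.58, 0.0536). An exon end is shared with Tulp2 on the other strand, which was at 0.614 CPM or less.

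Ppp1r15b (ENSMUSG00000046062, chr1:133131143-133139783, plus strand) encodes the constitutive subunit, CReP. Its exons share 640 bases with Gm26616 on the other strand, a gene at 0.396 CPM or less. Ppp1r15b was read at 104, 124 and 133 CPM (lowest, median and highest) in IFNG libraries and 106, 109 and 121 CPM in Control libraries. The groups overlapped, and the log2 fold change was 0.13 ± 0.08, with a 95% interval of -0.04 to 0.30 (adjusted p = 0.274). It passed on totals that leave out the genes called higher (0.24, adjusted p = 0.0372), a scaling that put the median of all genes at 0.10 on the log2 scale, against -0.02 under TMM.

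The count of 2 lower genes changed with the method and with the Control libraries kept. With every library kept, Trib3 lost its call with DESeq2 (adjusted p = 0.0521). Ppp1r15a lost its call with limma-voom (0.0536) and, in edgeR, on totals without the genes called higher (0.0551). Without Control 6 alone, 0 of the 10 genes were lower. Without Control 4, 5 and 6, 0 were lower and 2 higher, Ddit3 and Sesn2. Without Control 1, 2 and 3, 4 were lower, Atf4, Trib3, Asns and Ppp1r15a, and 0 higher. Over all genes, 1842 of 16037 tested were higher and 732 lower without Control 4, 5 and 6. The counts were 1656 of 16197 higher and 808 lower without Control 1, 2 and 3. Both splits were drawn from the values of these genes, so the counts they gave are descriptions and not tests.

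Levels of different genes were compared per kilobase of exon, in IFNG and Control alike. Atf4 and Asns were the highest, at 63.3 ± 9.17 and 51.0 ± 11.2 CPM per kb in IFNG libraries and 75.4 ± 12.6 and 68.2 ± 22.6 CPM per kb in Control libraries (SD, n = 6 each), and overlapped each other. Below them, with no overlap, came Ppp1r15b, Sesn2 and Ddit3, at 17.0 to 21.7 CPM per kb on average in IFNG and 16.2 to 19.8 in Control libraries, each overlapping the next. Ppp1r15a, Eif2ak3 and Eif2ak4 followed at 4.10 to 4.87 CPM per kb in IFNG and 4.61 to 7.37 in Control libraries. These steps were not all separate. In Control libraries Ddit3 (lowest 10.1) overlapped Ppp1r15a (highest 12.7), and Eif2ak4 (lowest 4.17) overlapped Trib3 (highest 4.56). In IFNG libraries Eif2ak4 (lowest 2.79) overlapped Atf3 (highest 3.12). Atf3 was at 2.24 ± 0.54 CPM per kb in IFNG and 2.20 ± 0.85 in Control libraries. Trib3 was the lowest in IFNG libraries, at 0.914 ± 0.495 CPM per kb, with no overlap with Atf3, whereas in Control libraries it overlapped Atf3 at 2.71 ± 1.42 CPM per kb.

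**Figure D2:**
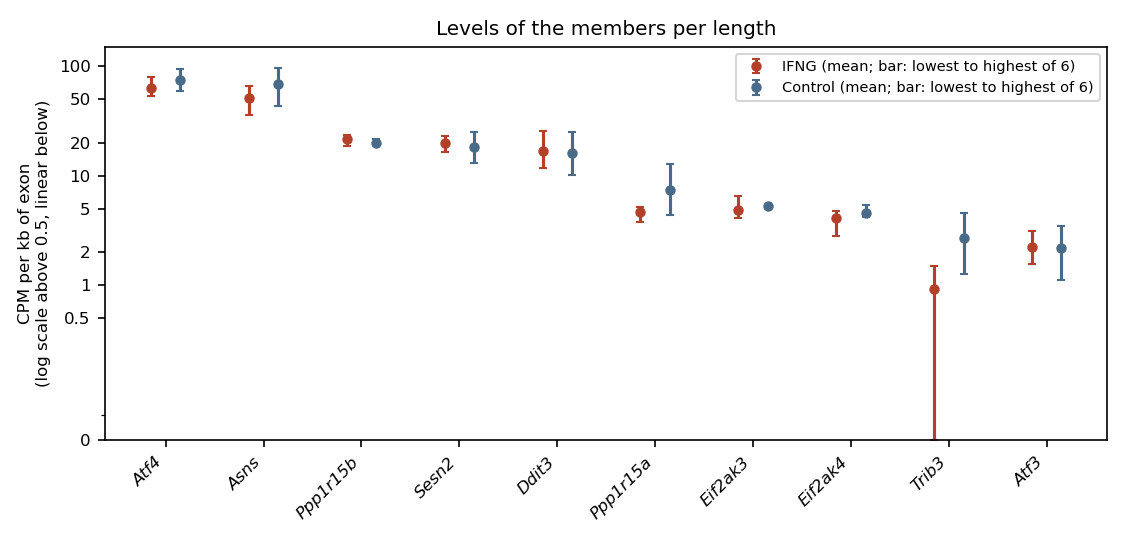
Level of each of the 10 genes in CPM per kilobase of exon, on an axis that is logarithmic above 0.5 and linear below, with IFNG left of Control for each gene. Points are means and bars run from the lowest to the highest of 6 libraries. Atf4 and Asns stand above all others in both groups, and the Trib3 bar in IFNG reaches 0.

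Further down the pathway, 3 of 7 tested ATF4 stress targets fell and 0 rose, the median log2 fold change being -0.37, while 9.79% of all genes were lower and 14.3% higher. At an unadjusted p under 0.05, 5 of the 7 were lower and 0 higher, against 2446 lower and 2894 higher of all 15241 genes. DESeq2 and limma-voom also called 0 of the 7 higher. Vldlr, a lipoprotein and reelin receptor gene, averaged 114 ± 16.3 CPM over IFNG libraries and 147 ± 12.8 CPM over the Control ones (SD, n = 6 each), and fell by 0.37 on the log2 scale (adjusted p = 0.0107), a call lost on totals without the genes called higher (0.0611) and without Control 4, 5 and 6 (0.141). Eif4ebp1, a brake on cap-dependent translation, fell by 0.95 (adjusted p = 0.0222) and the secreted factor gene Stc2 by 0.50 (0.0423). The call on Stc2 was lost when any 1 of IFNG 1, 2, 3 or 5 or Control 3, 4, 5 or 6 was left out, and that on Eif4ebp1 without Control 5 or Control 6. Ero1l, an endoplasmic reticulum oxidase gene, had the highest CPM of those that did not pass, at -0.34 ± 0.14 (adjusted p = 0.0863). Without Control 4, 5 and 6, 0 of these targets were lower; without Control 1, 2 and 3, 5 were; without Control 6 alone, 1 was; and with limma-voom 1 was. Gdf15, Fgf21 and Fam129a had too few counts to be tested, at 39, 18 and 58 counts over the IFNG libraries and 183, 93 and 57 over the Control libraries.

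Of the partner factor genes, Cebpb rose 2.02-fold (log2 fold change 1.02 ± 0.23, adjusted p = 0.00262). This was the 1 call among 4 tested genes, where 24.1% of all genes were called. The groups overlapped for Cebpb, at 9.27 CPM in the lowest IFNG library and 9.55 CPM in the highest Control library. Atf5, a factor translated under stress in the same manner as Atf4, stood at 0.30 ± 0.18 (adjusted p = 0.256). It was higher in IFNG without Control 6 alone. The value was 0.81 without Control 4, 5 and 6 (adjusted p = 0.000417), and its sign turned without Control 1, 2 and 3 (-0.07, 0.838).

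Amino acid supply is the best known task of ATF4. Among 14 enzymes of amino acid synthesis and one-carbon metabolism 2 rose and 2 fell, the median log2 fold change being -0.16, where 14.3% of all genes were higher and 9.79% lower. Cbs, of cysteine synthesis, rose by 1.18 ± 0.13 (adjusted p = 5.01e-07) and Phgdh, the entry enzyme of serine synthesis, by 0.98 ± 0.15 (6.20e-05). Both are also known as strongly expressed in astrocytes, whose markers rose in the same libraries. What part that shift had in these values was not tested. Aldh1l2, a mitochondrial folate enzyme gene, held 16.9, 14.3, 16.6, 19.8, 13.5 and 20.5 CPM in IFNG libraries 1 to 6, against 22.1, 24.3, 27.0, 48.0, 46.5 and 44.7 CPM in Control libraries 1 to 6. Every IFNG library was below every Control library, and Aldh1l2 fell by 1.07 on the log2 scale (adjusted p = 0.00029). Its value was -0.52 without Control 4, 5 and 6 (adjusted p = 0.0316) and -1.45 without Control 1, 2 and 3 (1.96e-06). Pycr1, of proline synthesis, was the other that fell, by 1.25 (adjusted p = 0.0128), and Psat1, the next enzyme of the serine pathway, stood at 0.12 ± 0.15 (0.619). Without Control 4, 5 and 6, 4 of the 14 enzyme genes were higher and 1 lower, Aldh1l2, and without Control 1, 2 and 3, 6 were lower.

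Of 9 amino acid transporter genes 1 rose and 1 fell, the median log2 fold change being -0.05, shares close to those of all genes (14.3% higher, 9.79% lower). Slc7a11, the cystine importer gene, rose to 233 ± 62.3 CPM in IFNG libraries, against 89.5 ± 42.5 CPM in the Control ones (SD, n = 6 each; 1.38 ± 0.24 on the log2 scale, adjusted p = 0.000245). Slc1a5, a glutamine carrier gene, fell by 0.91 (adjusted p = 0.0152); the call was lost without Control 6 (0.0635) and without Control 4, 5 and 6 (0.294). Slc7a5, the large neutral amino acid carrier gene, stood at -0.29 ± 0.13 (adjusted p = 0.132). Slc7a3, a cationic amino acid carrier gene, did not pass in the full comparison (adjusted p = 0.136) and is named, after its values were seen, for its spread. It held 16.1, 18.3, 20.4, 37.5, 42.3 and 44.8 CPM in IFNG libraries 1 to 6, against 21.8, 26.1, 20.6, 82.1, 74.8 and 73.1 CPM in Control libraries 1 to 6.

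The library order described for the 10 genes was shared by much of this group. Control 4, 5 and 6 were all above Control 1, 2 and 3 for 11 of the 14 enzyme genes, 7 of the 9 transporter genes and 11 of the 20 cytosolic aminoacyl-tRNA synthetase genes, against 9.15% of all genes tested. In the list of endoplasmic reticulum genes that the other stress branches control, 1 of 18 showed it, Herpud1. Within IFNG libraries the order held for 4 of the 14 enzyme genes, 2 of the 9 transporter genes, 3 of the 20 synthetase genes and 5 of the 18 endoplasmic reticulum genes, against 7.33% of all genes.

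**Figure D3:**
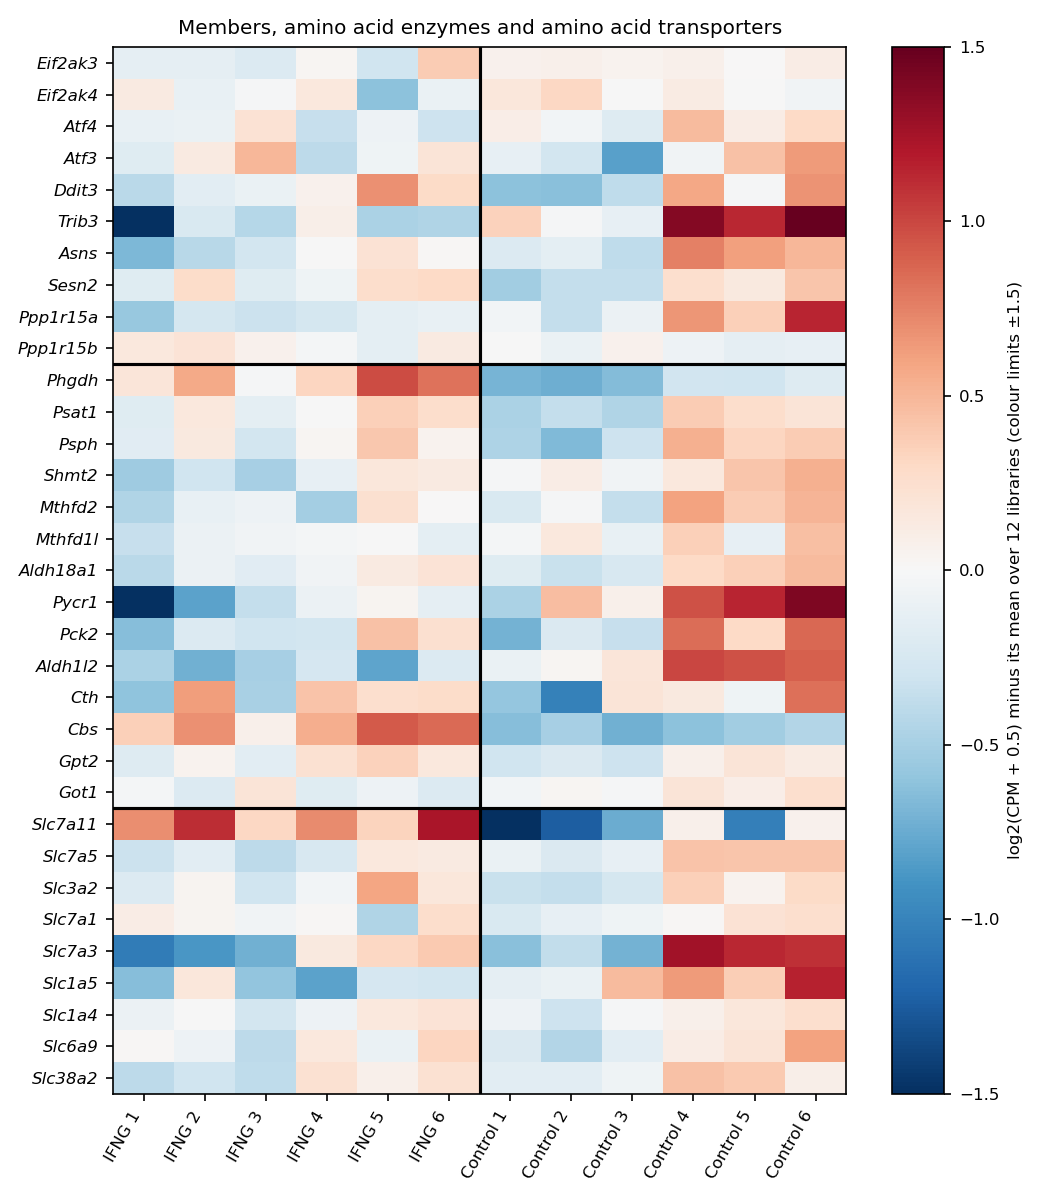
Log2(CPM + 0.5) minus its mean over the 12 libraries, with IFNG libraries left of Control libraries and colours limited at ±1.5. Rows are the 10 genes, then the 14 enzymes of amino acid synthesis and one-carbon metabolism, then the 9 amino acid transporters. Control 4, 5 and 6 are redder than Control 1, 2 and 3 in most rows, and Phgdh, Cbs and Slc7a11 are higher in IFNG libraries.

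Aminoacyl-tRNA synthetases load amino acids onto transfer RNA, and many of their genes are ATF4 targets. Of 20 tested 4 rose and 0 fell, the median log2 fold change being 0.01, against 14.3% higher and 9.79% lower among all genes. Wars, for tryptophan, is known as an interferon-gamma-induced gene. It held 256, 270, 272.5, 235, 278 and 253 CPM in IFNG libraries 1 to 6, against 111, 122.5, 113, 123.5, 138 and 148 CPM in Control libraries 1 to 6, and rose 2.07-fold (adjusted p = 1.55e-08). Kars, for lysine, rose by 0.74 ± 0.08 (adjusted p = 4.56e-07), Qars, for glutamine, by 0.32 ± 0.09 (0.0106) and Rars, for arginine, named after its value was seen, by 0.30 ± 0.09 (0.0248). Aars, for alanine, with the highest CPM of those that did not pass, stood at 0.05 ± 0.12 (adjusted p = 0.799). The call on Qars was lost without Control 4, 5 and 6 (adjusted p = 0.0667) and without Control 1, 2 and 3 (0.0802), where 2 of the 20 rose and 3 fell. At an unadjusted p under 0.05, 1 of the 20 was lower, and DESeq2 called 1 lower.

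PERK shares its trigger with the sensors IRE1 and ATF6, which control chaperone genes. Of 18 genes of those branches 7 rose and 1 fell, the median log2 fold change being 0.26, against 14.3% higher and 9.79% lower over all genes. Edem1, of protein disposal, rose by 0.96 ± 0.11 (adjusted p = 2.29e-06), Creld2 by 0.90 ± 0.14 (7.77e-05) and Pdia4, a disulfide isomerase gene, by 0.80 ± 0.14 (0.000271). Atf6 itself fell by 0.28 (adjusted p = 0.0253), a call that was lost without any 1 of IFNG 1, IFNG 2, Control 3, Control 4 or Control 6. Sel1l stood at 0.07 ± 0.09 (adjusted p = 0.585), and Xbp1, the factor gene spliced by IRE1, at -0.06 ± 0.09 (0.72).

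**Figure D4:**
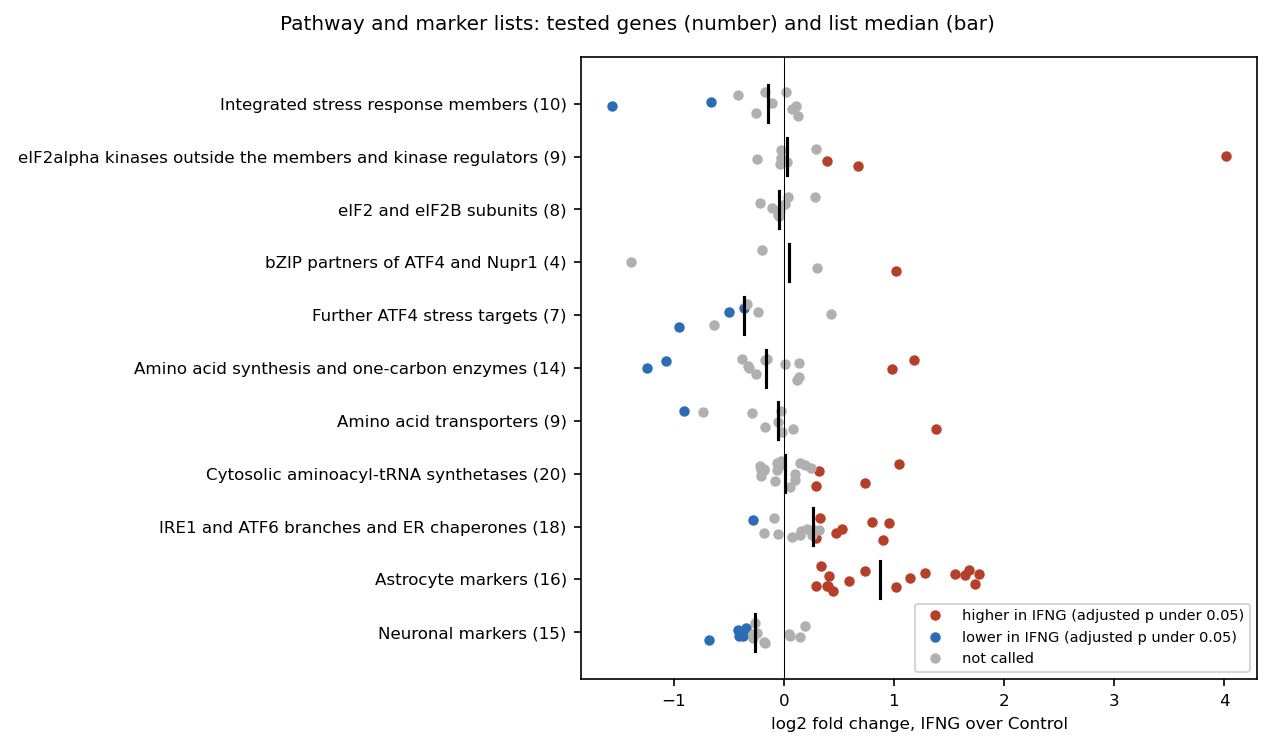
Log2 fold change, IFNG over Control, of every tested gene of the 10 genes, of the other pathway lists and of the astrocyte and neuronal markers, with the number tested in brackets. Red points were higher and blue points lower in IFNG (adjusted p under 0.05), grey points were not called, and the bar is the list median. The point at the far right is Eif2ak2, and all 16 astrocyte markers are red.

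Markers of other cells give the setting for these values. Their counts stand beside 14.3% higher and 9.79% lower over all genes tested, 24.1% together. Aldh1l1, Slc1a3 and Vim, of astrocytes, rose by 1.56 ± 0.10, 1.65 ± 0.12 and 1.77 ± 0.13 on the log2 scale (adjusted p = 3.63e-10, 1.06e-09 and 1.24e-09); of the 18 listed, Gjb6, with 0 counts in IFNG and 12 in Control libraries, and S100b, with 55 in each, were not tested. Only 3 of 14 microglial markers had enough counts to be tested, and 2 of them rose. P2ry12 rose to 0.965 ± 0.42 CPM with IFNG, against 0.0719 ± 0.154 CPM in the Control libraries (SD, n = 6 each), and Sall1 rose by 0.69 ± 0.16. The summed level of all 14 was 36.9 to 52.1 CPM with IFNG and 26.6 to 33.3 CPM in the Control libraries. Of 9 tested markers of oligodendrocytes and their precursors, Cnp was higher by 2.13, Olig2 fell by 0.35 and Pdgfra fell by 0.65, with Olig1 at -0.19 ± 0.09. The call on Olig2 was lost without IFNG 2 (adjusted p = 0.0531), without Control 5 (0.0626), without Control 4, 5 and 6 (0.128), without Control 1, 2 and 3 (0.0652) and on totals without the genes called higher (0.118), and that on Pdgfra without Control 1, 2 and 3 (0.0846). Their summed level was 317 to 361 CPM with IFNG and 299 to 402 CPM in the Control libraries. Among fibroblast and mural markers Pdgfrb, Fn1 and Fbln1 rose, by 1.09, 0.59 and 0.52, of 7 tested. The call on Fbln1 was lost when any 1 of IFNG 5, IFNG 6 or Control 2, 3, 4, 5 or 6 was left out, that on Fn1 without Control 4, 5 and 6 (adjusted p = 0.066) and that on Pdgfrb without Control 1, 2 and 3 (0.0523). Dcn stood at -0.01 ± 0.15, and the markers of this list summed to 132 to 182 CPM with IFNG and 99.1 to 123 CPM in the Control libraries. Endothelial markers summed to 1.95 to 5.58 CPM with IFNG and 0.824 to 2.94 CPM in the Control libraries, with Cldn5 at 0 in all 12 and Pecam1 at -0.43 ± 0.46. The higher sum rested on Ly6c1, which averaged 2.44 CPM with IFNG and 0.0081 CPM in the Control libraries. Pecam1 (1.11 against 1.48 CPM), Flt1 (0.18 against 0.39) and Cdh5 (0.049 against 0.198) averaged less with IFNG, and Tek more (0.193 against 0.096). Ly6c1, the called one of 2 tested, had 310 counts in IFNG and 1 in Control libraries. The ratio was 269.8, with an exact 95% interval of 48.1 to 10690 that covers counting error only and not the spread between libraries. Of the neuronal markers Gad1 fell by 0.68, Syn1 by 0.42 and Rbfox3 by 0.37, and Map2 stood at -0.28 ± 0.13 (adjusted p = 0.121). The markers with a positive value, named after their values were seen, were Nefm (0.20), Slc32a1 (0.14), Slc17a6 (0.05) and Slc17a7 (0.05), none of them called. The call on Syn1 was lost without Control 4, 5 and 6 (adjusted p = 0.0671), and those on Gad1 (0.0602) and Rbfox3 (0.0865) without Control 1, 2 and 3.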

How the data were processed

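Per the labels' protocols, libraries were made by poly(A) enrichment. The authors deposited raw counts per Ensembl gene, whole numbers that were not normalized. The submitters' processing notes name STAR 2.4 and DESeq2 and the builds GRCm39 and mm10, with no role for any; what counted the reads, with which annotation and strand setting, is not given in the sources used here. Symbols, positions and exon lengths came from GENCODE M21 (GRCm38), which matched 42548 of 43629 identifiers, and promoter windows from RefSeq (GRCm38.p6). Identifiers with no symbol held 0.1 to 0.113% of the counts and stayed in.

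Genes kept by filterByExpr were scaled by TMM and tested with two-sided quasi-likelihood tests (edgeR 4.0.16, R 4.3.3), called at an adjusted p under 0.05. The SE is the absolute log2 fold change over the square root of F. The count table holds 12 columns and all were used. Pairs of libraries of a group differed by a chi-square of at least 7.35 per gene, so all 12 were kept as separate samples; whether they came from separate cultures is not given, so p-values measure the spread between these samples only. The members and lists were chosen with earlier results of these data known. Named genes are the 10 members, Ifng, Eif2ak1 and Eif2ak2 and, from each other list, up to 3 called genes by smallest p and the uncalled one of highest CPM; others are said to be chosen after their values were seen, or complete a count of 5 or fewer. Slc7a3, Xbp1 and the untested genes named were likewise chosen after seeing values. The value of 1 gene that the rule names is not reported here. On counts simulated for this comparison, over 14726 genes, 59 of 100 genes with a 1.5-fold change and 77 of 100 with a 2-fold change were recovered, and 8 of 144 calls were false. The real comparison gave 3676 calls, so these rates need not hold there. Alternatives were other scalings (DESeq2 size factors, totals alone, totals without the genes called higher), other filters, the replicate number as a block, DESeq2 1.42.0, limma-voom (limma 3.58.1) and each library left out. Leaving out Control 4 with IFNG 5, Control 4 to 6, or Control 1 to 3 was chosen after seeing the data.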

Additional observations from a re-analysis of the deposited data

Results flagged for a closer look

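A single library lay farther from the other 5 of its group than Dixon's 95% critical value allows in 9 of 116 groups checked; chance gives about 1 in 20. Among the 10 genes this was Trib3, at 0 CPM in IFNG 1 against 1.98 to 3.16 CPM in the other IFNG libraries. In IFNG 5, Eif2ak1 was at 58.9 CPM (others 65.3 to 69.1), Qars at 106.5 CPM (others 78.4 to 86.8) and Map2 at 782 CPM (others 1343 to 1478). In Control 4, Ero1l was at 73.7 CPM (others 43.5 to 53.5). In Control 1, Fbln1 was at 20.9 CPM (others 14.0 to 15.8). P2ry12 was at 0.383 CPM in Control 2 (others 0 to 0.0485). Ly6c1 was at 0.921 CPM in IFNG 3 (others 2.57 to 2.92) and at 0.0485 CPM in Control 6 (others 0).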

How the results depend on the processing

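Over 58 named genes and 23 alternatives, 1216 of 1332 log2 fold changes kept direction and side of the threshold, 55 lost and 16 gained a call, and 45 changed sign; the cause was not tested. All-gene calls of 1492 lower became 750 on totals without the genes called higher, where 79.75% of calls were higher against 59.4% in the reported comparison; library totals alone gave 51.35%. They became 732 without Control 4, 5 and 6 and 808 without Control 1, 2 and 3, and leaving out 1 library gave 1047 to 1699 lower and 1924 to 2332 higher.

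Totals without the genes called higher gave 1 higher and 1 lower among the 10 genes, 1 higher eIF2 subunit gene, 1 lower further ATF4 target and 0 lower in the endoplasmic reticulum list, with Eif2ak1 at 0.089 and Dcn at 0.10. With Control 4, 5 and 6 left out, the 10 genes gave 2 higher and 0 lower, the partner factors 2 higher, the further targets 0 lower, the enzymes 4 higher and 1 lower, the transporters 0 lower and the endoplasmic reticulum list 0 lower, with Asns at 0.10, Gcn1l1 at -0.070, Eif2s2 at 0.018 and Slc7a5 at 0.036. With Control 1, 2 and 3 left out the lists gave 4, 1, 5, 6 and 3 lower for the 10 genes, partner factors, further targets, enzymes and transporters, 2 higher and 3 lower synthetases and 0 lower in the endoplasmic reticulum list, with Atf3 at -0.33, Ddit3 at -0.34, Sesn2 at -0.19, Eif2ak1 at 0.032, Atf5 at -0.069, Psat1 at -0.19, Aars at -0.14 and Dcn at 0.052. DESeq2 gave 1 lower of the 10 genes and 1 lower synthetase; limma-voom gave 1 lower of the 10 genes and 1 lower further target. Without Control 4 and IFNG 5, 1 of the 10 genes was lower and 0 of the endoplasmic reticulum list, with Eif2ak1 at 0.0072, Gcn1l1 at -0.013 and Dcn at 0.045. With no filter, 5 further targets, 2 transporters and 0 endoplasmic reticulum genes were lower, with Eif2ak1 at 0.0028 and Dcn at 0.016; with at least 1 CPM in 6 samples Dcn was at 0.0013. Library totals alone gave 1 lower synthetase, Atf3 at -0.017 and Gcn1l1 at -0.018.

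Leaving out 1 library gave 0 to 3 lower of the 10 genes, 1 to 2 higher partner factors, 1 to 4 lower further targets, 0 to 1 lower transporters, 0 to 2 lower synthetases and 0 to 1 lower endoplasmic reticulum genes. Signs turned within -0.11 to 0.21 for Atf3, -0.075 to 0.26 for Ddit3, -0.051 to 0.019 for Eif2ak1, -0.030 to 0.082 for Gcn1l1, -0.0069 to 0.15 for Aars and -0.089 to 0.079 for Dcn.

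Same-numbered libraries of the groups correlated in their deviations at -0.00096 to 0.124, so the numbers were not taken as pairs. With the replicate number as a block, 2114 genes were higher and 1563 lower, 5 further targets and 3 transporters were lower, and Asns was lower (-0.38, adjusted p = 0.0168).

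Depth limits Atf3 and Trib3 most, with at most 171 and 200 counts in a library.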
